A study of Homo sapiens with 18 samples.

Results

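The genes described here are 10 components of the B cell receptor and of the signalling steps next to it: CD79A, CD79B, BLNK, SYK, BTK, LYN, PLCG2, PTPN6, VAV1 and GRB2. They were taken by symbol from the deposited tables, and all 10 were present in each table, out of 17561 genes listed in at least 1 table. The study knocked down FOXO3, a forkhead transcription factor, in cells of Burkitt lymphoma, a MYC-driven cancer of germinal centre B cells. It used 3 established Burkitt lymphoma cell lines: BL-41, which is free of Epstein-Barr virus, and Namalwa and Jiyoye, which carry it. In each line 1 group received a lentivirus that expresses a short hairpin RNA (shRNA) against FOXO3, and the control group received the same kind of vector with a scrambled shRNA. Both groups therefore carried the vector and its red fluorescent marker, infected cells were sorted on day 4, and polyadenylated RNA was sequenced. There were 3 libraries in each of the 6 groups, which makes 18. They are labelled as triplicates with no word on separate cultures, so every p-value covers just the spread of such libraries, and that spread may be technical. Each line is 1 cell line and not a set of independent tumours, and the labels name no further hairpin against FOXO3.

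The B cell receptor is a membrane immunoglobulin held by a pair of signalling chains, CD79A and CD79B. After antigen binding, LYN, a SRC family kinase, phosphorylates tyrosines in the tails of both chains, and SYK docks there and becomes active. SYK phosphorylates the adaptor BLNK, which brings BTK and PLCG2 together, so that PLCG2 can release calcium and activate protein kinase C. GRB2 and VAV1 connect the same complex to RAS and other small GTPases, and the phosphatase PTPN6 (SHP-1) switches the signal off. Burkitt lymphoma cells are known for signalling from the receptor that does not need antigen and that runs mainly through phosphatidylinositol 3-kinase.

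The deposited tables hold 1 normalized value per arm, a log2 fold change of FOXO3 shRNA over scrambled shRNA, a p-value and an adjusted p-value for each gene, without values of single libraries. The values of the scrambled and FOXO3 shRNA arms summed to 17780991 and 18459745 for BL-41, 18108430 and 18341696 for Namalwa and 17065755 and 17282413 for Jiyoye. Errors are standard errors (SE) recovered from the fold change and its p, and 95% intervals follow from them. A gene was called when its adjusted p by DESeq2 was under 0.05. The target itself, FOXO3, was called lower in BL-41 and in Namalwa and not in Jiyoye. Its log2 fold changes in that order were -0.79, -1.09 and -0.30, per the authors' deposited table. Directions in Jiyoye are therefore those of libraries labelled FOXO3 shRNA whose FOXO3 level was not called lower (DESeq2 adjusted p = 0.187).

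The adaptor BLNK was the member called lower in all 3 lines. CD79B fell in BL-41 and rose in Jiyoye. PLCG2 fell in BL-41, SYK fell in Jiyoye, and CD79A and VAV1 rose in Jiyoye. LYN, BTK, PTPN6 and GRB2 were called in no line. By DESeq2, 3 of 10 members were lower in BL-41 and 0 higher (2 higher at an unadjusted p under 0.05). Of all 16001 genes there, 28.7% were called, 14.2% lower and 14.5% higher. Among its 9884 genes whose arms averaged 100 or more, 40.7% were called, 20.7% lower and 20.0% higher. By DESeq2, 1 of 10 members was lower in Namalwa and 0 higher (0 higher at an unadjusted p under 0.05). Of all 15365 genes there 6.41% were called, 3.81% lower and 2.60% higher, and of the 9671 averaging 100 or more 9.61% were, 5.76% lower and 3.85% higher. By DESeq2, 2 of 10 members were lower in Jiyoye and 3 higher. Of all 16787 genes there 17.4% were called, 8.70% lower and 8.69% higher, and of the 10122 averaging 100 or more 25.5% were, 12.8% lower and 12.7% higher. All 10 members averaged 100 or more in each line, so the shares among such genes are the closer background. Against them the counts in BL-41 and Namalwa were near the background, and 5 of 10 in Jiyoye was above it, with no test of the list. The members were chosen with earlier results of these data known, so this count is a description and no evidence of an excess. The median log2 fold change of the members was -0.08 in BL-41, -0.06 in Namalwa, and 0.02 for Jiyoye, beside 0.02, 0.00 and 0.01 over all genes.

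**Figure D1:**
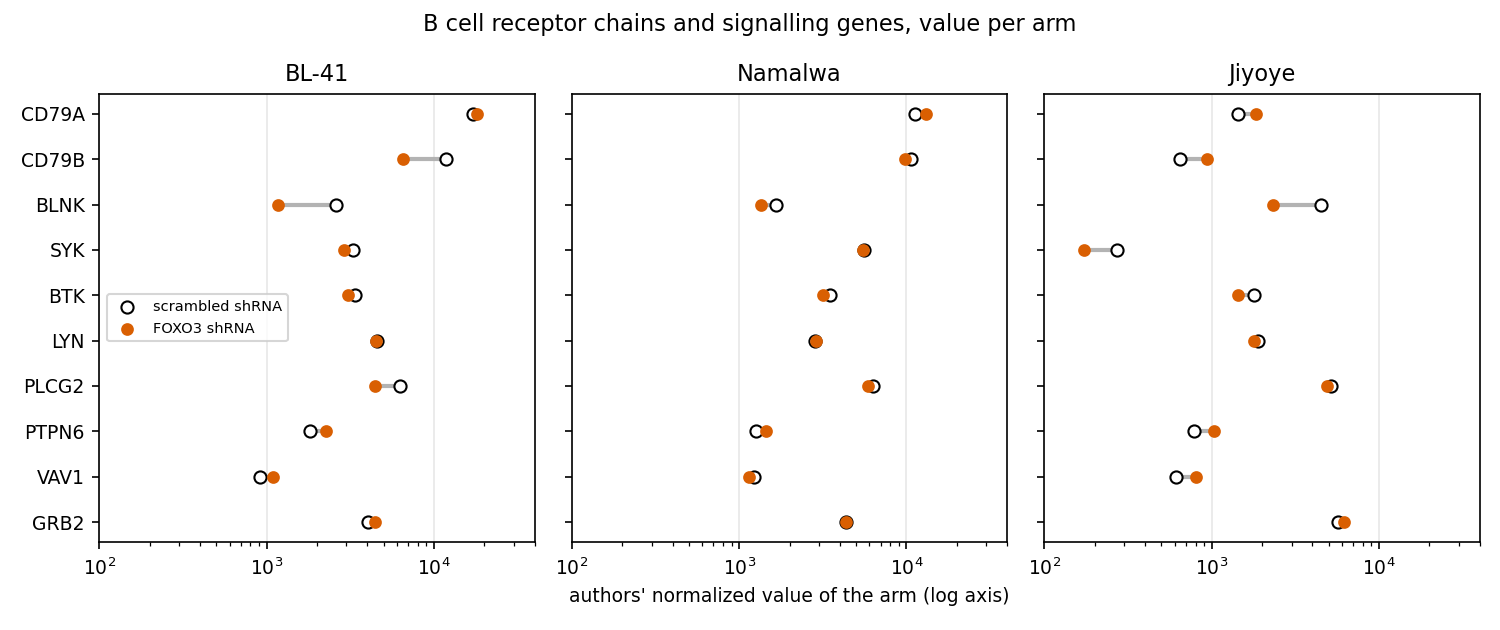
Value of each of the 10 genes in each arm, as the authors normalized it (log axis), with scrambled shRNA as open and FOXO3 shRNA as filled circles, 1 panel per line. BLNK lies to the left of its control in every panel, and CD79B moves left in BL-41 (11753 to 6564) and right in Jiyoye (648 to 937).

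**Figure D2:**
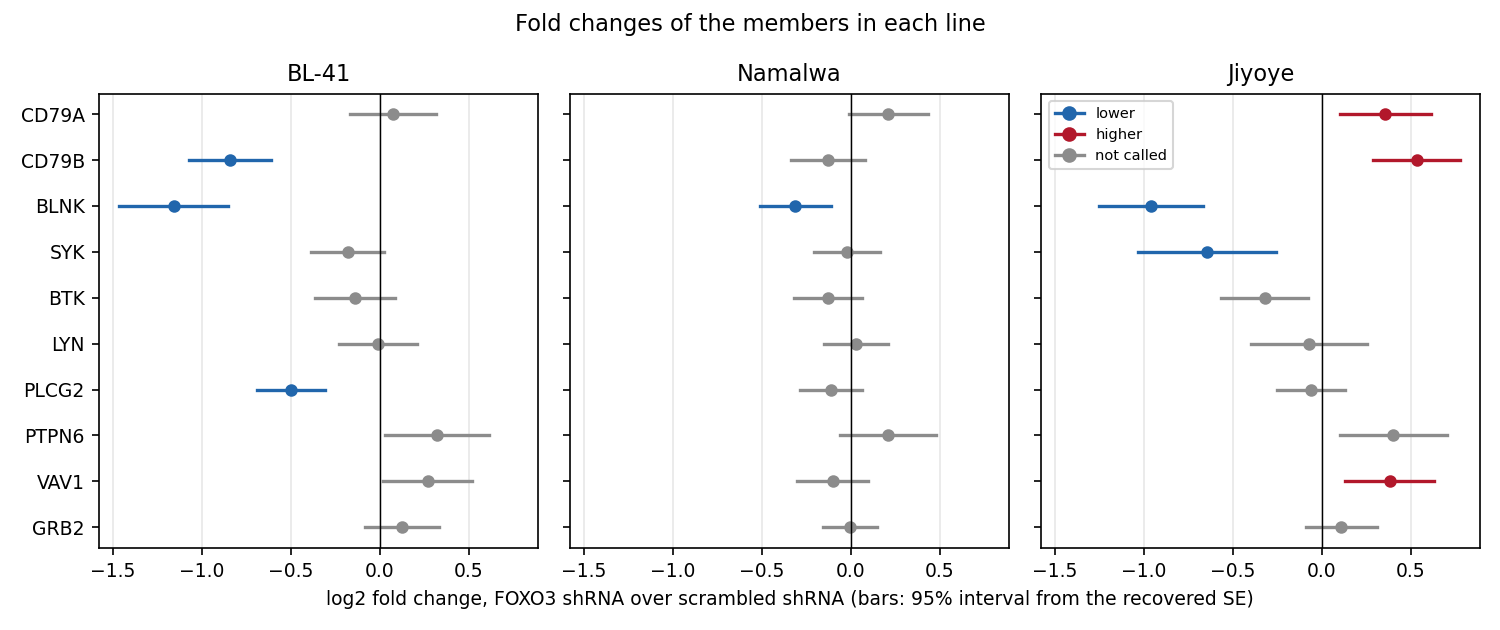
Log2 fold change of FOXO3 shRNA over scrambled shRNA for each gene and line, with 95% intervals from the recovered SE, coloured by the call at an adjusted p under 0.05. Of 30 combinations of gene and line, 9 were called, and the lowest is BLNK in BL-41 (-1.16).

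Promoter windows from RefSeq (GRCh38.p14, 250 bases before to 50 after the start of the gene) were matched for 8 of the 10 members, and CD79B and LYN were not used here. The 250 bases before the start are shown for BLNK, which fell in every line, and for CD79A, a receptor chain that did not fall in any. Both are written 5′ to 3′ on the strand of the gene, with capitals marking the ETS core word GGAA or its complement TTCC. The BLNK window is chr10:96271570-96271819 on the minus strand, and the CD79A window is chr19:41877029-41877278 on the plus strand.
BLNK: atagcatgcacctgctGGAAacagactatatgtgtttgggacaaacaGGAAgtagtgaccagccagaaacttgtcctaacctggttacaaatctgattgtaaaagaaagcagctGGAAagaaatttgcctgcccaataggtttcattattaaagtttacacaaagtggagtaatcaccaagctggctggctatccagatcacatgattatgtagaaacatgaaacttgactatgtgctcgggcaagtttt
CD79A: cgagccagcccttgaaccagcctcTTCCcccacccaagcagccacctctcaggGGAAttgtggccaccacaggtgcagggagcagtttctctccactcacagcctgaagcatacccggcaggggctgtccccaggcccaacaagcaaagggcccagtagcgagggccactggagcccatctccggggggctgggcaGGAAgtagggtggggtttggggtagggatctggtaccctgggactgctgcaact
Counted from the start of the gene, GGAA began at -234, -203 and -136 in the BLNK window. In the CD79A window it stood on the other strand at -226 and on the gene's strand at -197 and -54. It was found in all 8 member windows and in 95.2% of the 13996 windows of genes in the tables, which is nearly every window. The forkhead word GTAAACA, searched on both strands, was in 0 of the 8 windows and in 2.45% of all windows. The octamer word ATGCAAAT, also searched on both strands, was in 0 of 8 and in 1.62% of all. None of these words contains another, and a window without a match says only that the letters are not in it.

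CD79A and CD79B form the signalling pair of the receptor, and CD79A (chromosome 19, 41877279 to 41881372, GRCh38) was the more abundant chain in every arm per kilobase. In the authors' deposited table, the CD79A value was 17157 with scrambled and 18060 with FOXO3 shRNA in BL-41, 11316 and 13110 in Namalwa, and 1432 and 1833 in Jiyoye. The FOXO3 shRNA arm was the higher one in each line, and the call was made in Jiyoye alone. The log2 fold change of CD79A in Jiyoye was 0.36, per the authors' deposited table (recovered SE 0.13, DESeq2 adjusted p = 0.0399), and those in BL-41 and Namalwa, 0.07 (adjusted p = 0.761) and 0.21 (adjusted p = 0.325), were not called. The intervals of those were -0.17 to 0.32 and -0.01 to 0.43. The interval in Jiyoye, from 0.10 to 0.61, overlaps both, and the differences between lines are tested below. The Jiyoye call of CD79A ended at an adjusted p under 0.01.

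CD79B (chromosome 17, 63928738 to 63932336, GRCh38) moved in opposite directions in 2 of the lines. Per the authors' deposited table, its value was 11753 with scrambled and 6564 with FOXO3 shRNA in BL-41, 10675 and 9778 in Namalwa, and 648 and 937 in Jiyoye. The FOXO3 shRNA arm was thus the lower one in BL-41 and the higher one in Jiyoye, with the arms of Namalwa close together. CD79B fell by 0.84 on the log2 scale in BL-41, per the authors' deposited table (recovered SE 0.12, DESeq2 adjusted p = 9.92e-11), a change of -44.2% with a 95% interval from -52.5% to -34.4%. It rose by 0.53 in Jiyoye, per the authors' deposited table (recovered SE 0.12, DESeq2 adjusted p = 0.000341), a change of 44.6% with an interval from 22.2% to 71.2%. In Namalwa the fold change of -0.13 (interval from -0.34 to 0.08) was not called, per the authors' deposited table (DESeq2 adjusted p = 0.667). Of 15419 genes in both tables, 49 (0.318%) were called lower in BL-41 and higher in Jiyoye. Another protein-coding gene annotated in GENCODE 44 has exons that overlap CD79B on its strand. Whether the authors' annotation held that gene is not given in the sources used here, and a split of reads between them was not tested. Per kilobase, the CD79B value was 0.681 of that of CD79A with scrambled and 0.361 with FOXO3 shRNA in BL-41, from the authors' deposited table. Namalwa went from 0.957 to 0.757 in this ratio, and Jiyoye from 0.446 to 0.504, with no test, since errors of genes of the same libraries are not independent.

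LYN, the SRC family kinase that starts the signal, showed no call. The authors' deposited table gave LYN as 4560 with scrambled and 4522 with FOXO3 shRNA in BL-41, 2826 and 2885 in Namalwa, and 1879 and 1788 in Jiyoye. The log2 fold changes were -0.01, 0.03 and -0.07, per the authors' deposited table (DESeq2 adjusted p of 0.966, 0.919 and 0.840). Their intervals ran from -0.23 to 0.21, from -0.15 to 0.21 and from -0.40 to 0.25. Changes of LYN within these bounds could not be told from 0 with these libraries.

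SYK, the kinase that docks on the phosphorylated chains (chromosome 9, 90801787 to 90898549, GRCh38), fell in Jiyoye, where it was already scarce. SYK was 3295 with scrambled and 2909 with FOXO3 shRNA in BL-41, 5582 and 5509 in Namalwa, and 270.0 and 173 in Jiyoye, per the authors' deposited table. The Jiyoye arms lay far below those of the other lines, and the FOXO3 shRNA arm was the lowest of all. SYK fell by 0.64 in Jiyoye, per the authors' deposited table (recovered SE 0.20, DESeq2 adjusted p = 0.00962), a change of -36.0% with an interval from -51.0% to -16.4%. This SE was the largest of any member in any line. The fold changes in BL-41 (-0.18, adjusted p = 0.209) and Namalwa (-0.02, adjusted p = 0.953) were not called by DESeq2, per the authors' deposited table.

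BTK, the TEC family kinase that activates PLCG2, was not called in any line. The authors' deposited table listed BTK at 3378 with scrambled and 3068 with FOXO3 shRNA in BL-41, 3485 and 3186 in Namalwa, and 1784 and 1429.7 in Jiyoye. The FOXO3 shRNA arm was the lower one in each line. The log2 fold changes were -0.14, -0.13 and -0.32, per the authors' deposited table (DESeq2 adjusted p of 0.427, 0.599 and 0.0570). The value in Jiyoye was just outside the threshold and was called there when the p-values were adjusted only over genes with an average of 100 or more.

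BLNK (chromosome 10, 96189171 to 96271587, GRCh38) is the scaffold on which BTK and PLCG2 meet, and its transcript had the largest falls of the 10 genes. BLNK was 2603 with scrambled and 1167 with FOXO3 shRNA in BL-41, 1668 and 1343 in Namalwa, and 4515 and 2323 in Jiyoye, per the authors' deposited table. The FOXO3 shRNA arm was lower in each line, and the log2 fold change of BLNK was the lowest of the 10 genes in each. BLNK fell by 1.16 in BL-41, per the authors' deposited table (recovered SE 0.16, DESeq2 adjusted p = 9.37e-12), a change of -55.2% with an interval from -63.7% to -44.6%. In Jiyoye it fell by 0.96, per the authors' deposited table (recovered SE 0.15, DESeq2 adjusted p = 7.71e-09), a change of -48.6% with an interval from -57.9% to -37.1%. In Namalwa it fell by 0.31, per the authors' deposited table (recovered SE 0.10, DESeq2 adjusted p = 0.0383), a change of -19.5% with an interval from -29.9% to -7.50%. Ranked from the lowest fold change among genes with an average of 100 or more, BLNK was number 138 of 9884 in BL-41, 1039 of 9671 in Namalwa and 149 of 10122 in Jiyoye. Of 14549 genes in all 3 tables, 263 (1.81%) were called lower in each line, and BLNK was 1 of them. The Namalwa call ended at an adjusted p under 0.01, so the fall in all 3 lines rests on the threshold of 0.05 there. Exons of ZNF518A overlap BLNK on the other strand, and those of a processed pseudogene, NPM1P25, overlap it on its own strand. Whether the authors counted by strand is not given in the sources used here. The log2 fold changes of ZNF518A were -0.15 in BL-41, -0.26 in Namalwa, and -0.53 for Jiyoye, per the authors' deposited table (DESeq2 adjusted p of 0.439, 0.426 and 0.00405), and its part in the result was not tested.

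GRB2, the adaptor that links receptor complexes to RAS, was called in no line. The authors' deposited table put GRB2 at 4056 with scrambled and 4429 with FOXO3 shRNA in BL-41, 4358 and 4351 in Namalwa, and 5723 and 6177 in Jiyoye. The arms lay close together in each line. The log2 fold changes were 0.13, 0.00 and 0.11, per the authors' deposited table (DESeq2 adjusted p of 0.436, 0.998 and 0.561). The interval in Namalwa, from -0.15 to 0.15, was the narrowest of all members.

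PLCG2, the phospholipase that produces the calcium and protein kinase C signals (chromosome 16, 81779279 to 81962685, GRCh38), fell in BL-41. The authors' deposited table gave PLCG2 as 6283 with scrambled and 4447 with FOXO3 shRNA in BL-41, 6323 and 5849.6 in Namalwa, and 5130.5 and 4918 in Jiyoye. The FOXO3 shRNA arm was the lower one in each line, with the widest gap in BL-41. PLCG2 fell by 0.50 in BL-41, per the authors' deposited table (recovered SE 0.10, DESeq2 adjusted p = 4.56e-06), a change of -29.2% with an interval from -37.9% to -19.3%. The fold changes of -0.11 in Namalwa (adjusted p = 0.632) and -0.06 in Jiyoye (adjusted p = 0.797) were not called by DESeq2, per the authors' deposited table. Exons of 2 annotated genes, a long non-coding RNA and RN7SKP176, overlap PLCG2 on its strand, and their part in the result was not tested.

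VAV1, an exchange factor that activates small GTPases (chromosome 19, 6772708 to 6857366, GRCh38), rose in Jiyoye. VAV1 was 909 with scrambled and 1096 with FOXO3 shRNA in BL-41, 1234 and 1149.8 in Namalwa, and 616 and 802 in Jiyoye, per the authors' deposited table. The FOXO3 shRNA arm was the higher one in BL-41 and Jiyoye and the lower one in Namalwa. VAV1 rose by 0.38 in Jiyoye, per the authors' deposited table (recovered SE 0.13, DESeq2 adjusted p = 0.0213), a change of 30.3% with an interval from 9.44% to 55.1%. In BL-41 the fold change of 0.27 had an unadjusted p of 0.0346 and was not called, per the authors' deposited table (DESeq2 adjusted p = 0.102). In Namalwa it was -0.10, per the authors' deposited table (DESeq2 adjusted p = 0.756). The Jiyoye call of VAV1 ended at an adjusted p under 0.01.

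PTPN6, the phosphatase that removes the activating phosphates, was higher in the FOXO3 shRNA arm of each line without passing the threshold in any. The authors' deposited table listed PTPN6 at 1816 with scrambled and 2268 with FOXO3 shRNA in BL-41, 1256 and 1449.9 in Namalwa, and 783 and 1035 in Jiyoye. The log2 fold changes were 0.32, 0.21 and 0.40, per the authors' deposited table (DESeq2 adjusted p of 0.0922, 0.504 and 0.0506), with intervals from 0.03 to 0.61, from -0.06 to 0.48 and from 0.10 to 0.70. The value in Jiyoye was called when the adjustment covered only genes with an average of 100 or more.

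The chains and SYK were much scarcer in Jiyoye than in the other lines, while PLCG2 and GRB2 were at similar levels in all. The tables were normalized separately, so levels are set side by side as a description, per kilobase of the deposited gene length and with no test. In BL-41 the order with scrambled shRNA ran from CD79A (13814 per kilobase) and CD79B (9402) through BLNK, BTK, GRB2, LYN, PTPN6, PLCG2 and SYK to VAV1 (310), per the authors' deposited table. In Namalwa the chains again led, with 9245 for CD79A and 8851 for CD79B per kilobase, and VAV1 was last with 420.1, from the authors' deposited table. In Jiyoye the order was another, led by BLNK (2499 per kilobase) and GRB2 (1734), then CD79A (1161), with CD79B at rank 6 (518) and SYK last (53.2), from the authors' deposited table. Of the 10 members, 8 were lowest in Jiyoye. From the authors' deposited table, the level of SYK per kilobase was 20.5 times as high in Namalwa as in Jiyoye, that of CD79B 18.2 times as high in BL-41 as in Jiyoye and that of CD79A 11.9 times. The ratio of the highest to the lowest line was 1.23 for PLCG2 and 1.41 for GRB2, per the authors' deposited table. The tables used here hold no value per library, so whether neighbours in these orders differ beyond the spread of the libraries was not tested.

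A percentile within a table does not depend on how that table was scaled. By the scrambled value per kilobase, SYK stood at percentile 87.9 in BL-41 and 92.4 in Namalwa and at 43.7 in Jiyoye, from the authors' deposited table. CD79B stood at 99.3, 99.2 and 85.6 and CD79A at 99.4, 99.2 and 94.7 in these lines, from the authors' deposited table. BLNK stood at 95.5, 90.7 and 98.0, from the authors' deposited table. With FOXO3 shRNA, BLNK went from rank 3 to rank 7 of the 10 members per kilobase in BL-41 and from rank 1 to rank 3 in Jiyoye, and it stayed at rank 6 in Namalwa.

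**Figure D3:**
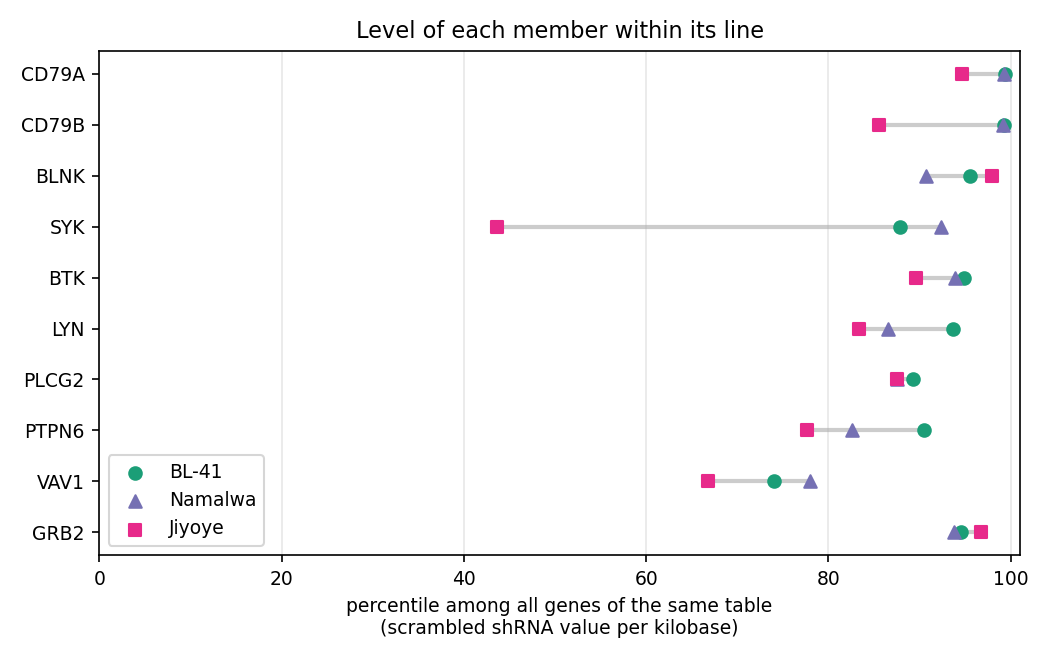
Percentile of each gene among all genes of its own table, by the scrambled shRNA value per kilobase (x axis, 0 to 100), with 1 symbol per line. SYK in Jiyoye, at 43.7, stands apart from the other points, and CD79B in Jiyoye (85.6) lies below its place in the other lines.

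Whether the lines responded differently was tested on the difference of their fold changes, with a z test from the recovered SE and Benjamini-Hochberg adjustment over all genes of both tables. Over the 3 pairs of lines, 7 of 30 member differences passed. Between BL-41 and Namalwa 3 of 10 members passed, against 7.01% of all 14789 genes, or 9.36% of the 9224 averaging 100 or more in both. Between BL-41 and Jiyoye 2 of 10 passed, against 6.25% of 15419 genes, or 8.15% of 9241. Between Namalwa and Jiyoye 2 of 10 passed, against 2.75% of 14933 genes, or 3.57% of 9096.

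CD79B passed in every pair. Its fold change in BL-41 minus that in Jiyoye was -1.37 (SE 0.17, adjusted p = 3.38e-12 by the z test), from -0.84 and 0.53. BL-41 minus Namalwa was -0.71 (SE 0.16, adjusted p = 0.000764 by the z test) and Namalwa minus Jiyoye was -0.66 (SE 0.16, adjusted p = 0.00623 by the z test). For the other chain, CD79A, no pair passed, and the difference of BL-41 minus Jiyoye was -0.28 with an interval from -0.64 to 0.07 (adjusted p = 0.425 by the z test).

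BLNK fell less in Namalwa than in the other lines. BL-41 minus Namalwa was -0.85 (SE 0.19, adjusted p = 0.000616 by the z test) and Namalwa minus Jiyoye was 0.65 (SE 0.18, adjusted p = 0.0188 by the z test). BL-41 minus Jiyoye was -0.20 with an interval from -0.62 to 0.22 and did not pass (adjusted p = 0.713 by the z test). The FOXO3 fold change was lowest in Namalwa (-1.09), then BL-41 (-0.79) and Jiyoye (-0.30), per the authors' deposited table. The difference of the FOXO3 fold changes did not pass for BL-41 minus Namalwa (0.30, adjusted p = 0.486 by the z test) or for BL-41 minus Jiyoye (-0.50, adjusted p = 0.136), and it passed for Namalwa minus Jiyoye (-0.80, adjusted p = 0.0174). Neighbours in that order are therefore not shown to differ, and a relation of the BLNK changes to the FOXO3 changes was not tested.

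PLCG2 fell more in BL-41 than in either of the others, narrowly so against Namalwa. BL-41 minus Namalwa was -0.39 (SE 0.13, adjusted p = 0.0475 by the z test), and this call ended with fold changes recentred on their median (adjusted p = 0.0503). BL-41 minus Jiyoye was -0.44 (SE 0.14, adjusted p = 0.0299 by the z test). SYK and VAV1, which were called only in Jiyoye, did not pass in any pair. Namalwa minus Jiyoye was 0.63 for SYK (interval from 0.20 to 1.05, adjusted p = 0.0954) and -0.48 for VAV1 (interval from -0.80 to -0.16, adjusted p = 0.0795), so their changes are not shown to differ between lines by the z test. For BTK, LYN, PTPN6 and GRB2 no pair passed, and the bound farthest from 0 among their intervals was -0.60, for PTPN6 in Namalwa minus Jiyoye. With a t reference of 8 degrees of freedom in place of the normal one, 0 members passed in any pair, with 3, 2 and 4 at an unadjusted p under 0.05 in the order above. That reference passed 0 of all genes in each pair, with 2017, 1997 and 1283 at an unadjusted p under 0.05.

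**Figure D4:**
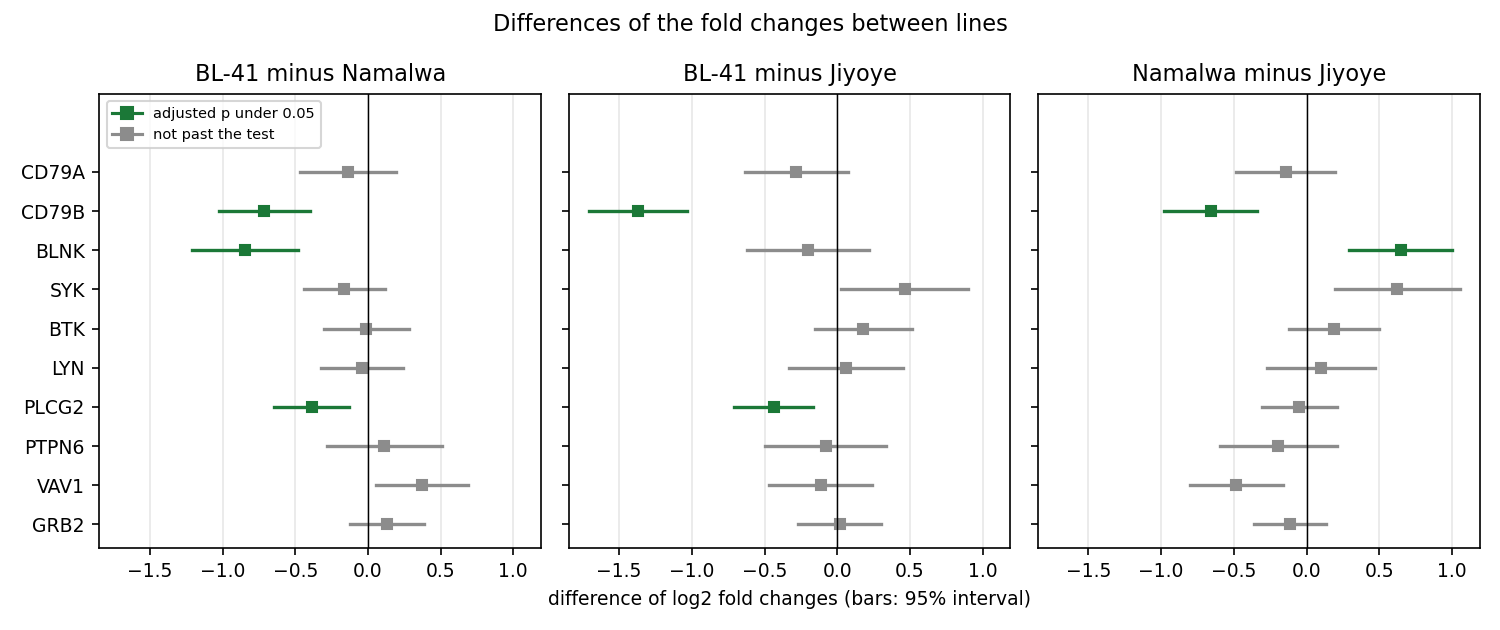
Difference of the log2 fold changes between each pair of lines for each gene, with 95% intervals; green marks an adjusted p under 0.05. CD79B is marked in all panels, with -1.37 for BL-41 minus Jiyoye, and BLNK in both panels that hold Namalwa.

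The rest of the pathway was followed with 135 genes in 11 lists, of which 128 were measured in BL-41 and in Namalwa and 127 in Jiyoye. In BL-41 41 were called lower and 22 higher, in Namalwa 12 and 2, and in Jiyoye 14 and 26. In all, 49.2% of those measured were called in BL-41, 10.9% in Namalwa, and 31.5% for Jiyoye. The shares were 28.7%, 6.41% and 17.4% over all genes, and 40.7%, 9.61% and 25.5% over the genes averaging 100 or more. Of the measured list genes, 121, 115 and 113 reached that average. By direction, 20.7% of the genes averaging 100 or more were called lower and 20.0% higher in BL-41. These shares were 5.76% and 3.85% in Namalwa and 12.8% and 12.7% in Jiyoye. They are the background for every list below, and a count near them is no result about that list. The lists were described by their counts, and no list was tested as a set.

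Immunoglobulin genes were mostly not analysed here, and 2 of the 9 in the list were measured, JCHAIN, the joining chain of polymeric antibodies, and IGLL5, a light chain-like gene that can share reads with the light chain locus. JCHAIN fell by 1.42 and IGLL5 by 1.13 in BL-41, per the authors' deposited table (DESeq2 adjusted p of 5.45e-16 and 3.25e-08), and 0 were called by DESeq2 in Namalwa and in Jiyoye (1 lower in each at an unadjusted p under 0.05). Of 8 co-receptors, 3 were lower in BL-41, 2 in Namalwa, and 1 for Jiyoye, where 2 were higher, while 0 were higher by DESeq2 in BL-41 and Namalwa (0 at an unadjusted p under 0.05). CD38, an ectoenzyme of the B cell surface, fell by 1.05 in BL-41 and 0.48 in Namalwa, per the authors' deposited table (DESeq2 adjusted p of 1.52e-09 and 0.0122). CD53, a tetraspanin, fell by 0.61 in BL-41 and 0.64 in Jiyoye, and CD37, another tetraspanin, by 0.55 in BL-41 and 0.35 in Namalwa, per the authors' deposited table (DESeq2 adjusted p from 1.22e-05 to 0.0290). CD81, a tetraspanin of the co-receptor complex, and PTPRC, the phosphatase CD45, rose by 0.57 and 0.63 in Jiyoye, per the authors' deposited table (DESeq2 adjusted p of 1.21e-05 and 0.00208).

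Of the 9 other kinases of the SRC, CSK and TEC families, 2 were lower and 1 higher in BL-41, none was called in Namalwa, and 2 were lower and 2 higher in Jiyoye. In Namalwa 1 kinase had an unadjusted p under 0.05. The SRC family kinases FGR and BLK fell by 1.14 and 0.52 in BL-41, and SRC, at a low level, rose by 0.69, per the authors' deposited table (DESeq2 adjusted p from 2.43e-07 to 0.0235). In Jiyoye CSK, the kinase that restrains SRC family members, rose by 0.54, and FYN and FGR fell by 0.36 and 0.29, per the authors' deposited table (DESeq2 adjusted p from 0.00298 to 0.0432).

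Of the other adaptors, 5 of 20 were lower and 6 higher in BL-41, 1 lower and 1 higher in Namalwa, and 0 of 19 lower by DESeq2 (2 at an unadjusted p under 0.05) and 3 higher in Jiyoye. In BL-41 SH3BP2 and CRK rose by 0.82 and 0.86, and LAT2 and SLA fell by 0.60 and 0.80, per the authors' deposited table (DESeq2 adjusted p from 1.42e-08 to 0.000775). LAT2 moved the other way in Jiyoye, where it rose by 0.35, per the authors' deposited table (DESeq2 adjusted p = 0.0410). CRK rose by 0.36 and SLA fell by 0.52 in Namalwa, per the authors' deposited table (DESeq2 adjusted p of 0.0261 and 0.0137). SH3BP2 rose by 0.41 in Jiyoye, and LCP2 rose by 0.85 in BL-41 and 0.77 in Jiyoye, per the authors' deposited table (DESeq2 adjusted p of 0.0134, 2.67e-05 and 0.0175). LCP2 codes for SLP-76, the relative of BLNK in T cells, and it was low beside BLNK, at 67.0 with scrambled and 114 with FOXO3 shRNA in Jiyoye, per the authors' deposited table. Of 14 exchange factors and GTPases, 2 were lower and 3 higher in BL-41, 0 lower by DESeq2 (2 at an unadjusted p under 0.05) and 1 higher in Namalwa, and 1 lower and 2 higher in Jiyoye. HRAS was 1 of 215 genes (1.48% of 14549) called higher in all 3 lines. It rose by 1.13 in BL-41, 0.49 in Namalwa, and 1.32 for Jiyoye, per the authors' deposited table (DESeq2 adjusted p of 3.89e-11, 0.0408 and 9.21e-18). RASGRP3 and RASGRP1, exchange factors for RAS that answer to diacylglycerol, fell by 0.98 and 0.74 in BL-41, and RASGRP2 fell by 0.78 in Jiyoye, per the authors' deposited table (DESeq2 adjusted p from 2.42e-07 to 0.00998).

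Downstream of PLCG2, 5 of 14 genes of the calcium and NFAT arm were lower and 1 higher in BL-41, 2 lower and 0 higher in Namalwa, and 1 lower and 0 higher in Jiyoye, by DESeq2. At an unadjusted p under 0.05, 0 were higher in Namalwa and 3 in Jiyoye. ORAI2, a subunit of calcium channels, fell by 0.64 in BL-41 and 0.32 in Namalwa, per the authors' deposited table (DESeq2 adjusted p of 8.42e-07 and 0.00327). The NFAT factors NFATC2 and NFATC1 fell by 0.68 in BL-41 and 0.30 in Namalwa, and PPP3CB, a calcineurin subunit, by 0.35 in BL-41 and 0.42 in Jiyoye, per the authors' deposited table (DESeq2 adjusted p from 5.33e-06 to 0.0327). ITPR3, a calcium release channel, rose by 0.43 in BL-41, per the authors' deposited table (DESeq2 adjusted p = 0.000624). Of 11 genes of the protein kinase C and IKK arm, 2 were lower and 1 higher in BL-41, 2 lower and 0 higher in Namalwa, and 0 lower and 2 higher in Jiyoye, by DESeq2. At an unadjusted p under 0.05, 2 were higher in Namalwa and 0 lower in Jiyoye. PRKCB, the main protein kinase C of receptor signalling in B cells, fell by 0.97 in BL-41 and 0.58 in Namalwa, per the authors' deposited table (DESeq2 adjusted p of 9.36e-09 and 8.12e-05). PRKCD rose by 0.84 in BL-41 and 0.55 in Jiyoye, and PRKCA by 0.69 in Jiyoye, per the authors' deposited table (DESeq2 adjusted p from 1.35e-09 to 0.0331).

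Of 11 genes of the PI3K and AKT arm, 2 were lower and 3 higher in BL-41, 1 lower and 0 higher by DESeq2 in Namalwa (0 higher at an unadjusted p under 0.05), and 3 lower and 5 higher in Jiyoye. PDPK1, the kinase that activates AKT, fell in every line, by 0.49 in BL-41, 0.45 in Namalwa, and 0.54 for Jiyoye, per the authors' deposited table (DESeq2 adjusted p of 0.00112, 0.000717 and 0.000314). AKT1 rose by 0.54 in BL-41 and 0.50 in Jiyoye, PIK3R2 by 1.03 in BL-41 and 0.47 in Jiyoye, and PIK3CD by 0.61 in Jiyoye, per the authors' deposited table (DESeq2 adjusted p from 1.48e-12 to 0.0287). PIK3CA fell by 0.31 in BL-41 and PIK3R5 by 0.58 in Jiyoye, per the authors' deposited table (DESeq2 adjusted p of 0.0165 and 0.00657). Of 7 genes of the RAF, MEK and ERK arm, 1 was lower and 2 higher in BL-41, none was called in Namalwa (1 higher at an unadjusted p under 0.05), and 0 were lower by DESeq2 (0 at an unadjusted p under 0.05) and 3 higher in Jiyoye. MAP2K1 rose by 0.42 in BL-41 and 0.50 in Jiyoye, per the authors' deposited table (DESeq2 adjusted p of 0.00128 and 0.00303). BRAF fell by 0.36 in BL-41 and MAPK3 rose by 0.39 in Jiyoye, per the authors' deposited table (DESeq2 adjusted p of 0.0118 and 0.00989).

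Among 19 inhibitory receptors and phosphatases, 9 were lower and 4 higher in BL-41 (median log2 fold change -0.47), 2 lower and 0 higher by DESeq2 in Namalwa (2 higher at an unadjusted p under 0.05), and 1 lower and 5 higher in Jiyoye. SIGLEC10, an inhibitory lectin of the B cell surface, fell by 1.15 in BL-41 and 0.47 in Namalwa, and PAG1, the adaptor that recruits CSK, by 0.94 in BL-41, per the authors' deposited table (DESeq2 adjusted p from 4.83e-08 to 0.0216). The inositol phosphatases INPP5D and INPPL1 rose by 0.72 and 0.51 in BL-41 and by 0.47 and 0.72 in Jiyoye, per the authors' deposited table (DESeq2 adjusted p from 4.80e-10 to 0.00180). The adaptor DOK3 fell by 0.75 in BL-41 and 0.41 in Namalwa and rose by 0.42 in Jiyoye, per the authors' deposited table (DESeq2 adjusted p of 3.81e-06, 0.000714 and 0.0256). PECAM1 fell by 0.55 in BL-41 and 0.43 in Jiyoye, per the authors' deposited table (DESeq2 adjusted p of 0.0470 and 0.0173). Of 13 transcription factors of B cell genes, 8 were lower and 1 higher in BL-41 (median -0.52). By DESeq2, 2 were lower and 0 higher in Namalwa (1 higher at an unadjusted p under 0.05), and 5 lower and 2 higher in Jiyoye. Over genes averaging 100 or more, 20.7% were lower in BL-41, and the list was chosen with earlier results of these data known. SPIB, an ETS factor of B cells, fell by 1.15 in BL-41, 0.72 in Namalwa, and 0.69 for Jiyoye, per the authors' deposited table (DESeq2 adjusted p of 3.72e-12, 0.000182 and 0.00242). POU2AF1, the coactivator of octamer factors, fell by 1.05 in BL-41 and 0.74 in Jiyoye, per the authors' deposited table (DESeq2 adjusted p of 2.72e-09 and 6.03e-06). IRF4 rose by 0.54 in BL-41, and it fell by 0.42 in Namalwa and from 9723 to 3433 in Jiyoye, per the authors' deposited table (DESeq2 adjusted p from 1.64e-14 to 0.00580). In Jiyoye IKZF3 fell by 0.92 and IKZF1 rose by 0.43, per the authors' deposited table (DESeq2 adjusted p of 4.44e-09 and 0.00235). POU2F2, an octamer factor, fell by 0.56 in BL-41 and rose by 0.29 in Jiyoye, per the authors' deposited table (DESeq2 adjusted p of 0.000414 and 0.0417).

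**Figure D5:**
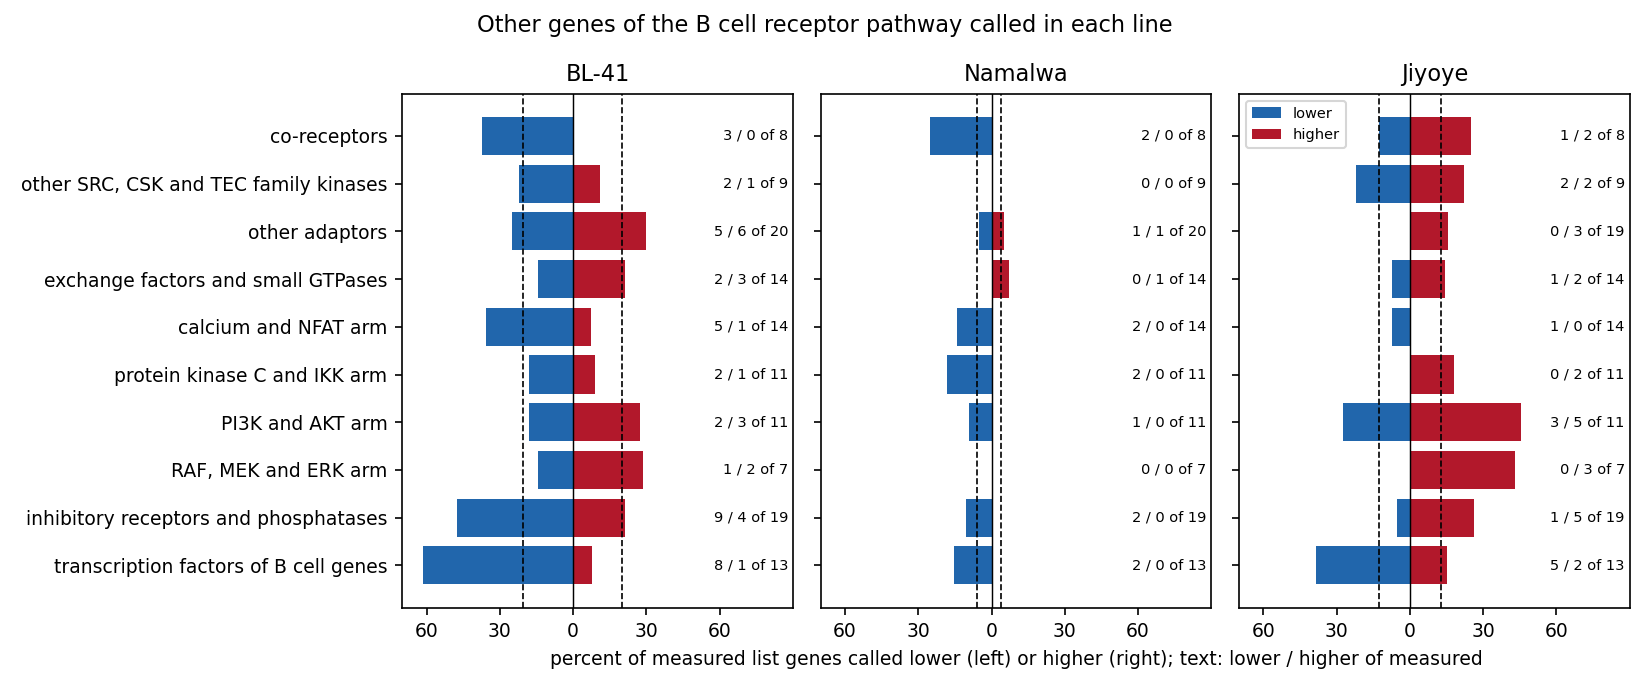
Percent of the measured genes of each list called lower (left) or higher (right) in each line, with the counts as text; dashed lines give the share of all genes with an average of 100 or more called in that direction. The transcription factor list has 8 of 13 genes lower in BL-41, and Namalwa has few calls in any list. The list of immunoglobulin genes, with 2 measured, is left out.

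The labelled cell type was checked against fixed markers. All 7 B cell markers were listed in each line. Their values summed to 35987 and 30285 in BL-41, 20543 and 21471 in Namalwa and 11492 and 10227 in Jiyoye for scrambled and FOXO3 shRNA, from the authors' deposited table. Being listed does not mean a high level. With scrambled shRNA, CR2 was at 34.2 in BL-41 and 23.8 in Namalwa, and MS4A1 at 124 in Namalwa. T cell markers were listed too, 6 of 7 in BL-41, with scrambled sums of 70.9, 3.62 and 54.1 in the same order of lines. The fibroblast and epithelium sums were 11.9, 13.3 and 369. In BL-41, where CD79B, BLNK and PLCG2 fell, 2 of the 7 were called lower and 0 higher by DESeq2 (0 higher at an unadjusted p under 0.05), namely CD22 by -0.48 and MME by -0.53, per the authors' deposited table. Of all genes there 14.2% were called lower, and of those averaging 100 or more 20.7%, so 2 of 7 is near the background. In Namalwa and in Jiyoye 0 of the 7 were called by DESeq2, with 1 lower and 1 higher at an unadjusted p under 0.05 in each. Over all genes 6.41% and 17.4% were called in these lines. MME and BCL6, which mark the germinal centre type of Burkitt lymphoma, were low in Jiyoye, at 105 and 67.7 with scrambled shRNA, per the authors' deposited table. Of 10 myeloid markers 9 were listed in BL-41, where 4 were higher and 0 lower by DESeq2 (0 lower at an unadjusted p under 0.05), beside 14.5% of all genes called higher. Their sum went from 239 to 444, per the authors' deposited table. The myeloid enzyme MPO was at 0.782 and 0.879 there, and S100A9 was not in that table. In Namalwa the myeloid sum was 197 and 207 and in Jiyoye 705 and 603, per the authors' deposited table, with 0 of 9 listed markers higher by DESeq2 in Namalwa (1 at an unadjusted p under 0.05) and 1 of 8 higher in Jiyoye. Over all genes 2.60% were called higher in Namalwa and 8.69% in Jiyoye. SYK, BTK, LYN, PLCG2, PTPN6 and VAV1 are also expressed in myeloid cells, and the part of the B cell and myeloid markers in the changes of the members was not tested. Fewer cells of a type and less RNA per cell cannot be told apart in such bulk samples.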

How the data were processed

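The authors summarised 18 RNA libraries of 6 groups in 1 table for each of the lines BL-41, Namalwa and Jiyoye. Per the series' design text, the authors' reads went through SOAPnuke, Bowtie2 on hg38, RSEM and DESeq2, no version being named. How the authors normalized the deposited signal value per arm is not given in the sources used here. Its sums were of the scale of read counts and close between arms, so it was read as scaled for library size and not for gene length. The log2 fold change and the p-values and adjusted p-values are as deposited. The arms' ratio equals the deposited fold change to within 1.39e-14, so the arm values are tied to the fitted fold change, may carry its moderation and are no independent measure of it. A Benjamini-Hochberg recalculation matched the deposited adjusted p to within 3.56e-15. Genes that the authors marked as changed had an absolute log2 fold change of at least 0.58, and 4 of the 9 calls described here carry that mark.

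The planned fits on counts per library (edgeR, leaving out replicates, a replicate block) could not be run and were not run, since the tables hold no value per library. Each SE was taken as the size of the deposited fold change divided by the two-sided normal quantile of its p. This assumes that p is a Wald test of that fold change, which the sources used here do not state. For genes averaging 100 or more the median SE was 0.144 (BL-41), 0.127 (Namalwa) and 0.149 (Jiyoye), which limits the precision. The z test between lines was run on simulated data with normal noise of the recovered SE, which does not show whether those SE or the normal reference are right. Levels were divided by the deposited length. Pathway genes named in the text are, per list and line, up to 2 called genes with the smallest adjusted p in each direction, some of which are not reported here; their calls in the other lines, LCP2 levels, ZNF518A, MPO, MME, CD22 and BCL6 were added after their values were seen. The octamer word was added after the files were seen. Members and lists were chosen with earlier results of these data known. Positions are from GENCODE 44 (GRCh38). Calculations used scipy 1.17.1, pandas 2.3.3 and numpy 2.4.6 under Python 3.11.15, and plots matplotlib 3.10.9.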

Additional observations from a re-analysis of the deposited data

Results flagged for a closer look

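In 7 of 30 cases a member's log2 fold change differed between a pair of lines by the z test of the difference. Each is given as the first line minus the second. Of all genes averaging 100 or more in both lines, 9.36% passed for BL-41 minus Namalwa. The shares were 8.15% for BL-41 minus Jiyoye and 3.57% for Namalwa minus Jiyoye. CD79B differed in every pair, by -0.71 for BL-41 minus Namalwa, -1.37 for BL-41 minus Jiyoye and -0.66 for Namalwa minus Jiyoye. BLNK differed by -0.85 for BL-41 minus Namalwa and by 0.65 for Namalwa minus Jiyoye. PLCG2 differed by -0.39 for BL-41 minus Namalwa and by -0.44 for BL-41 minus Jiyoye. With 8 degrees of freedom in the reference none of these passed.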

How the results depend on the processing

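Members called by DESeq2 numbered 3 (BL-41), 1 (Namalwa) and 5 (Jiyoye). At an adjusted p under 0.01 they were 3, 0 and 3, and with an absolute log2 fold change of at least 0.5 as well 2, 0 and 3; the 0 of Namalwa compares with 1 at an unadjusted p under 0.05. The calls of BLNK in Namalwa and of CD79A and VAV1 in Jiyoye ended under both settings, and that of PLCG2 in BL-41 (-0.50) ended at the fold limit. Adjustment restricted to genes averaging 100 or more gave 3, 1 and 7, and recentring or adjusting over the 3 tables together left the counts at 3, 1 and 5. Recentring moved fold changes by at most 0.00437. Pathway genes called were 14 in Namalwa and 40 in Jiyoye, and 6 and 26 at an adjusted p under 0.01, and 3 and 22 with the fold limit. In BL-41 the count of 63 ran from 45 to 64. Apart from the t reference below, the share of all genes called under each altered setting is not given here. Counts under those settings therefore cannot be set against a background.

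Members differing between lines were 3 for BL-41 and Namalwa, 2 for BL-41 and Jiyoye and 2 for Namalwa and Jiyoye. At an adjusted p under 0.01 these were 2, 1 and 1. With the t reference of 8 degrees of freedom they were 0, 0 and 0 (3, 2 and 4 at an unadjusted p under 0.05), and the adjusted p of CD79B was 0.206, 0.0956 and 0.403. That reference passed 0 genes over the whole tables (2017, 1997 and 1283 at an unadjusted p under 0.05), and which reference is right for these SE was not tested. Recentring gave 2, 2 and 2, where PLCG2 between BL-41 and Namalwa missed the threshold.

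Of these settings only recentring alters a fold change, by at most 0.00437, and no direction of a member reversed with it. The others change p-values or limits and leave the fold changes as they are, so they could not reverse a direction. Leaving out a replicate and edgeR with TMM were not run, because the tables give 1 value per arm. No paired analysis was possible because the tables hold 1 value per arm, although the sample titles number the libraries of both arms alike. SYK in Jiyoye had the lowest values and the largest SE (0.20), so its change is the least precise.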
